A study of Mus musculus with 6 samples.

Results

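The loci of Id1, Id2 and Id3, the 3 Id genes examined here, were followed in H3K27ac peak lists of C2C12 cells as they left proliferation and differentiated. Members were all peaks that overlapped 1 of 3 fixed windows on mouse build mm9: chr2:152545000-152580000 for Id1 (35 kb), chr12:25755000-25805000 for Id2 (50 kb) and chr4:135680000-135720000 for Id3 (40 kb). The windows held 76 peaks of 243962 in the 3 lists together, namely 30 of 57101 in proliferation, 26 of 89717 after 36 h of differentiation and 20 of 97144 after 72 h. C2C12 is a mouse myoblast line that fuses into myotubes in culture. H3K27ac, acetylation of lysine 27 on histone H3, was measured by chromatin immunoprecipitation and sequencing (ChIP-seq) in proliferating myoblasts, at 36 h and at 72 h of differentiation, with 1 H3K27ac library and 1 input library per stage. Each H3K27ac library was made from pooled DNA of 4 ChIP assays. The series is titled for a role of TAp63 in myogenesis, and no sample label names a change of genotype or an added agent. With 1 library per stage the spread between cultures was not measured, so no difference carries a test or a p-value, and a difference is called where it is at least 1.5-fold. The fold enrichment of a peak over its background is the authors' value and ranks peaks within 1 list only. Heights are therefore compared as summit fragments, the whole ChIP fragments stacked at a peak's summit, which were recovered from the deposited fold and p-value. Intervals given here are 95% intervals and cover counting error only.

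Id proteins carry a helix-loop-helix domain without the basic stretch that contacts DNA. They pair with E proteins, the general partners of MyoD and the other myogenic factors, and the pairs formed cannot bind E-box sites, so that Id proteins hold back muscle differentiation. Id1, Id2 and Id3 are known as genes of proliferating cells and as targets of BMP signalling through SMAD factors. H3K27ac marks active promoters and enhancers, and broad stretches of it are common around highly active genes.

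In RefSeq (GRCm38.p6), Id1 lies between the protein-coding genes Mcts2 and Cox4i2, Id2 between Kidins220 and Rnf144a, and Id3 between Rpl11 and E2f2. That build is not the build of the peaks, so no gene start was placed among them, peaks are given by position only, and the labelled cell type was not checked against its marker genes. RefSeq promoters matched 2 of the 3 genes. The 250 bases before the start are shown for Id2 and Id3, the loci where most acetylation was missing later, so that the elements a reader may want to follow up can be seen. Capitals mark the CCAAT box (CCAAT or ATTGG) in Id2, on the minus strand of chromosome 12, and the GC box (GGGCGG or CCGCCC) in Id3, on the plus strand of chromosome 4.

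Id2 promoter: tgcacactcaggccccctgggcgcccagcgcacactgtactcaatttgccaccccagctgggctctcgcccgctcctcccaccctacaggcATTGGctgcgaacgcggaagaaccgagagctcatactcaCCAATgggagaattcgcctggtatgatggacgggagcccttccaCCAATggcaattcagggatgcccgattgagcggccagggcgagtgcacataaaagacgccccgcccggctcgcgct

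Id3 promoter: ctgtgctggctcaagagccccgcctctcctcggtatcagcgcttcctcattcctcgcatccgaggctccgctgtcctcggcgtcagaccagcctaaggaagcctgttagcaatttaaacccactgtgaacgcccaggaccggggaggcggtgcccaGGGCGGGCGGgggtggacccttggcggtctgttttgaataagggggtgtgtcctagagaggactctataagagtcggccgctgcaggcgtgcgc

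On both strands, the Id2 sequence held the CCAAT box 3 times, starting 159, 120 and 76 bases before the gene start, and the Id3 sequence held none. CCAAT was found in 33.8% of all 32851 promoter sequences of that length. GC boxes, read by SP1-like factors, numbered 1 in Id2 and 2 in Id3, where they overlap, and occurred in 32.7% of all promoters. The E-box CANNTG, the site of MyoD with E proteins, occurred once in Id2, 196 bases before the start, and not in these Id3 letters, against 66.2% of all promoters. GGCGCC, a GC element of SMAD type, was found once in Id2, overlapping neither the E-box nor the CCAAT boxes, and in 9.59% of all promoters. Both sequences were 62.8% G and C. These matches describe the letters only.

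H3K27ac over the Id loci was lower in differentiating cells while the lists as a whole grew. Together the peaks of the 3 windows covered 35.5 kb in proliferating cells. By 36 h this length was 20.8 kb, or 0.585 times, and by 72 h it was 14.2 kb, or 0.399 times. The length under all peaks of the genome was instead 1.79 (36 h) and 2.03 (72 h) times that in proliferation. Most of the acetylated length of the Id2 locus was gone by 36 h. Length at Id3 was lower in steps at 36 h and 72 h, though 7.56% of genome windows of that size were as low at 36 h. Length at Id1 differed by less than 1.5-fold. Its summit fragments above background, scaled for depth, were at least 1.5-fold lower in 3 of 4 regions at 36 h and 2 of 4 at 72 h. Of all regions held by the 3 lists, 19% and 10.9% were. These are bulk cultures, in which fewer cells carrying the mark and less of it per cell cannot be told apart.

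**Figure D1:**
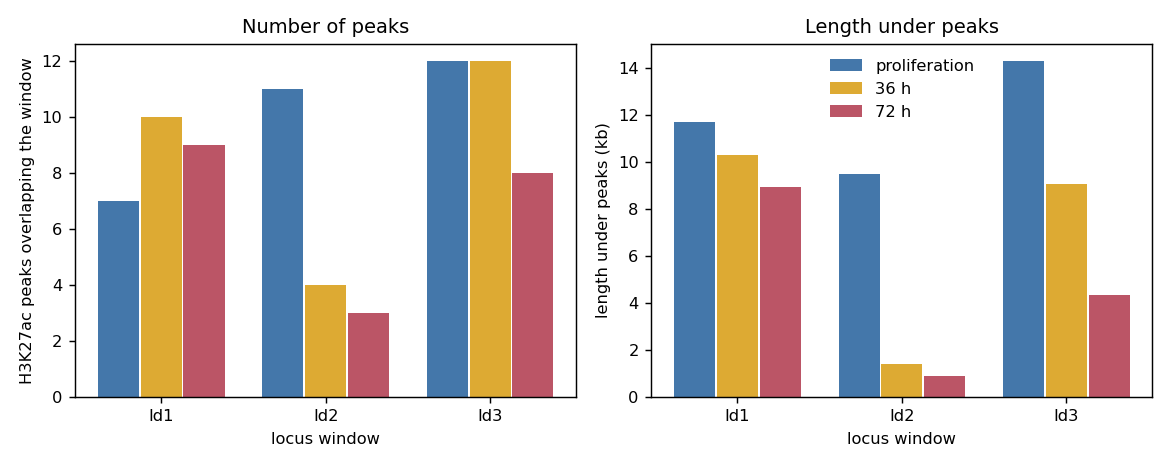
Number of H3K27ac peaks overlapping each window (left) and length under those peaks in kb (right) for Id1, Id2 and Id3, with 1 bar for the 1 library of each stage and therefore no error bar. Length under peaks is lower at each later stage in the 3 windows, from 9.5 to 0.876 kb at Id2, 14.3 to 4.35 kb at Id3 and 11.7 to 8.94 kb at Id1.

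At Id2, 11 peaks covered 9.5 kb in proliferation, 4 peaks covered 1.40 kb at 36 h and 3 peaks covered 0.876 kb at 72 h. The length was thus 6.77-fold lower at 36 h and 10.8-fold lower at 72 h. On the log2 scale with 500 bp added to each side, the differences were -2.39 and -2.86. Among 13643 windows of 50 kb laid end to end across the genome and holding a peak in each list, 8.22% were at least 1.5-fold lower at 36 h and 4.36% at 72 h. At least 1.5-fold higher were 42.4% and 48.1%, and the median window was higher by 0.46 and 0.55 on the same scale. As low as Id2 or lower were 20 of these windows at 36 h and 3 at 72 h, counts that include the window holding the Id2 peaks themselves. Among the 1433 windows with at least 5 kb under proliferation peaks, a group defined after the data were seen, 12.6% and 7.19% were at least 1.5-fold lower. As low as Id2 or lower were 7 and 2 of them, again with that window counted. Peak number was also past 1.5-fold, with 0.364 and 0.273 times the peaks of proliferation, a step reached by 15.8% and 13.1% of the windows. Between 36 h and 72 h the length under peaks at Id2 differed by -0.47, within 1.5-fold on that scale and 1.60-fold without the added length; with the later lists scaled to the depth of proliferation it was -0.63. At least 1.5-fold lower in that step were 5.59% of all such windows and 3.21% of those with 5 kb. Peak number went from 4 to 3, also within 1.5-fold, where 18.5% of windows were at least 1.5-fold lower. That ratio reached 1.5-fold under each of the 4 alternatives run. It was exactly 1.5-fold in the central 25 kb, a log2 of -0.58. The log2 was -1 among peaks whose −log10 q reached 5, with lists equal in number and at scaled depth.

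The Id2 peaks of proliferation fell into 2 groups, 5 peaks between 25779466 and 25786546 and 6 peaks between 25789662 and 25796937. No peak of any stage lay between the start of the window and 25779466. The strongest and longest was chr12:25783329-25786546, 3218 bp, with 64 summit fragments (interval 49.3 to 81.7) and a fold enrichment over background of 14.7, above 96.3% of the proliferation list. In its place stood a peak of 190 bp with 18 fragments at 36 h, chr12:25783404-25783593, and one of 147 bp with 14 fragments at 72 h, chr12:25783515-25783661. Both remnants lay at the low-coordinate end of the former peak, whose own summit at 25785727 was under no later peak. Fragments per unit of sequencing depth were 0.235 times those of proliferation at 36 h (interval 0.131 to 0.402) and 0.199 times at 72 h (0.103 to 0.359). At 72 h the fold of the remnant was 2.55, above 0.165% of the peaks of that list.

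The best kept Id2 peak was in the second group. At chr12:25794636-25796372, 1737 bp with 43 fragments in proliferation were followed by 652 bp with 22 fragments at 36 h and 528 bp with 28 fragments at 72 h. Its fragments per depth were 0.428 times proliferation at 36 h (0.244 to 0.732) and 0.593 times at 72 h (0.355 to 0.977). This was the strongest Id2 peak at both later stages, with folds of 7.26 and 6.34 in the respective lists, above 64.7% and 57.5% of their peaks. The third region with a peak at 72 h was chr12:25781132-25782415, where 1266 bp with 41 fragments gave way to 148 bp with 18 fragments and 201 bp with 16. Both later peaks lay at the low-coordinate end of the region, and the proliferation summit at 25782217 was under neither.

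Of the 11 proliferation peaks at Id2, 7 had no overlapping peak at 36 h and 8 had none at 72 h, beside 23.7% and 18.0% of all proliferation peaks. The missing peak with the most fragments was chr12:25782558-25783203, with 45 fragments in proliferation and a fold of 11.8, above 91.5% of its list. At equal signal, 52.8 fragments would be expected there at 36 h and 49.8 at 72 h, where 9 and 13 sufficed for a call at the median background of the Id2 peaks of those lists. The next was chr12:25780124-25780900, 777 bp with 28 fragments, for which 32.3 and 31.0 fragments would be expected. A peak of 510 bp with 21 fragments, chr12:25796428-25796937, was also absent later, and chr12:25779466-25780008, 543 bp with 24 fragments, was kept at 36 h as 413 bp with 15 fragments and absent at 72 h. The 4 other lost peaks were short, 147 to 338 bp, with 11 to 17 fragments. For the shortest of them 13.3 fragments would be expected at 72 h and 13 were needed, so its absence there is near the calling threshold. That of chr12:25789662-25789822, with 12 fragments in proliferation, is close to it as well.

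**Figure D2:**
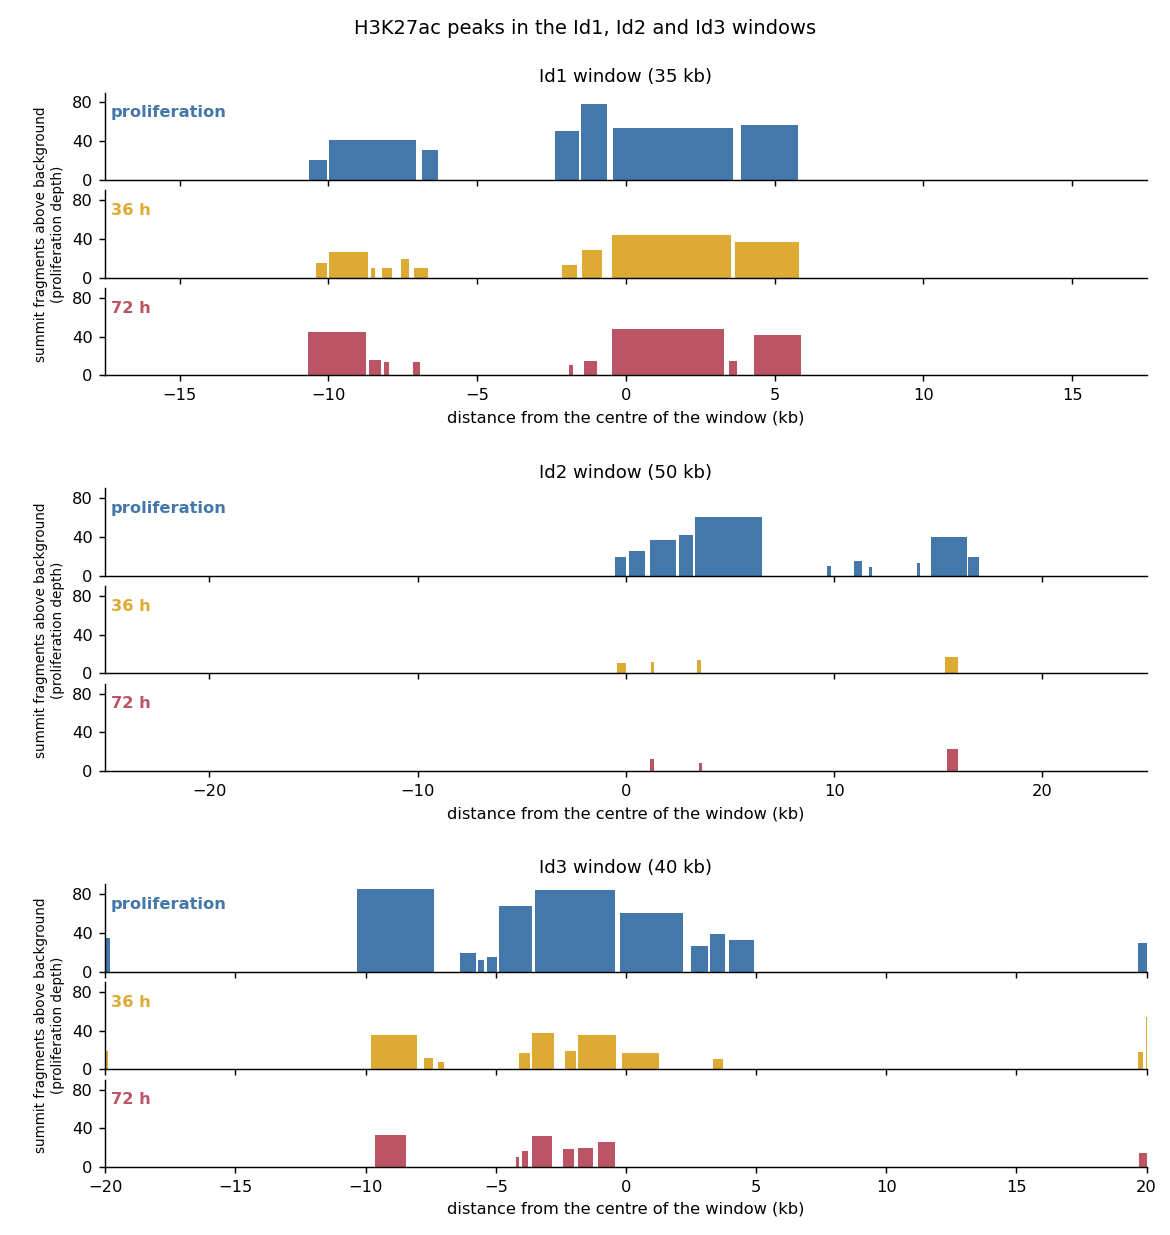
H3K27ac peaks along the Id1, Id2 and Id3 windows at each stage. The horizontal axis is the distance from the window's centre in kb, each bar spans 1 peak, and its height is the number of summit fragments above the local background, scaled to the sequencing depth of proliferation. At Id2 the 5 peaks at and just right of the centre are shorter or absent at the later stages. At Id3 the right part of the central block is empty at 72 h, and at Id1 the blocks keep their place.

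At Id3, 12 peaks covered 14.3 kb in proliferation, 12 peaks covered 9.07 kb at 36 h and 8 peaks covered 4.35 kb at 72 h. Peak number at 36 h was that of proliferation, where 16.8% of windows were at least 1.5-fold lower, but the length under the peaks was 1.58-fold lower, and at 72 h it was 3.29-fold lower. On the log2 scale with 500 bp added the differences were -0.63 and -1.61, and -0.98 between 36 h and 72 h, each past 1.5-fold. Of 14949 windows of 40 kb with a peak in each list, 8.2% were at least 1.5-fold lower at 36 h, 4.52% at 72 h and 5.75% at 72 h against 36 h. At least 1.5-fold higher were 40.9% at 36 h and 46.5% at 72 h. The share of windows as low as Id3 or lower was 7.56% at 36 h, close to the background, 0.308% at 72 h and 1.67% for 72 h against 36 h. With at least 5 kb under proliferation peaks, 13.3%, 7.31% and 2.82% of 1313 windows were at least 1.5-fold lower. As low as Id3 or lower were 12.3%, 0.838% and 0.914% of them. Peak number at 72 h was 0.667 times that of either earlier stage, exactly at the 1.5-fold step, which 14.6% of windows reached against proliferation and 19.9% against 36 h. Among peaks with a −log10 q of 5 or more it was not reached, with log2 ratios of -0.51 and -0.36.

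The Id3 window held a long block of 9 neighbouring proliferation peaks from 135693644 to 135704927, with a separate broad peak before it and short peaks at both window edges. The strongest was chr4:135696521-135699597, 3077 bp with 88 fragments (70.6 to 108) and a fold of 17.2, above 98.3% of the proliferation list. It was split into 3 peaks with 2718 bp in all at 36 h and 4 peaks with 2363 bp at 72 h, and its highest summit held 49 and 37 fragments. Per unit of depth these were 0.466 times (0.322 to 0.668) and 0.383 times (0.254 to 0.568) those of proliferation. Next to it, chr4:135695109-135696380, 1272 bp with 71 fragments, shrank to 438 bp with 24 fragments at 36 h and to 2 peaks of 407 bp in all, with 20 fragments at the higher summit, at 72 h. The ratios there were 0.283 (0.170 to 0.455) and 0.257 (0.148 to 0.426).

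On the high-coordinate side of the block the acetylated length went in 2 steps. The peak chr4:135699778-135702200, 2423 bp with 65 fragments, was 1433 bp with 25 fragments at 36 h (0.322 times per depth, 0.194 to 0.518) and had no counterpart at 72 h. At equal signal 68.6 fragments would be expected at 72 h, where 10 sufficed. The peak chr4:135703246-135703794 likewise passed from 44 fragments to 14 at 36 h and to no peak at 72 h. Its neighbours chr4:135702498-135703149 with 34 fragments and chr4:135703956-135704927 with 35 fragments had no peak at 36 h or 72 h. No 72 h peak lay between 135699565 and 135719707. On the low-coordinate side of the block, 3 shorter proliferation peaks were lost as well. They were chr4:135693644-135694241, 598 bp with 22 fragments, and 2 more of 200 and 385 bp with 16 and 18 fragments.

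The separate broad Id3 peak, chr4:135689660-135692607, stayed under peaks at each stage and narrowed. It spanned 2948 bp with 94 fragments (76.0 to 115) in proliferation, 1787 and 333 bp in 2 peaks at 36 h and 1219 bp at 72 h, with 45 and 38 fragments at the highest summits. The ratios per depth were 0.401 (0.274 to 0.577) and 0.368 (0.246 to 0.542). In each of the later lists its fold was higher than in proliferation, 10.8 and 12.5 against 9.18, although fewer fragments stood there. Divided by the genome background of its library, the local background there was 5.93 in proliferation, 1.60 at 36 h and 1.0 at 72 h, so the folds of different lists are not on 1 scale. The fold of this peak in its own list was above 83.1%, 82.1% and 86.2% of the peaks. One short peak appeared at 36 h only, chr4:135692783-135692993, 211 bp with 11 fragments, where 14 were needed in proliferation.

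The regions at the edges of the Id3 window reached beyond it and were not lower past 1.5-fold at 72 h. The region chr4:135719684-135721018 at the right edge, on the side where RefSeq lists E2f2 as the next gene, had highest summits of 45, 67 and 56 fragments. Per depth these were 1.25 times (0.841 to 1.86) and 1.13 times (0.752 to 1.72) proliferation. The peaks of it that overlapped the window had 33 fragments in proliferation, 24 and 67 at 36 h and 18 at 72 h. The region chr4:135678637-135680175 at the left edge had highest summits of 38, 29 and 39 fragments, or 0.639 times (0.380 to 1.06) and 0.935 times (0.583 to 1.5) proliferation per depth, and none of its 72 h peaks reached into the window. The window of 40 kb to the right held 7.92 kb under peaks in proliferation and 12.7 and 11.4 kb later, and that to the left 3.32, 2.60 and 2.88 kb. With peaks clipped at the window edges, the Id3 lengths were 13.6, 7.60 and 4.28 kb.

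At Id1, 7 peaks covered 11.7 kb in proliferation, 10 peaks covered 10.3 kb at 36 h and 9 peaks covered 8.94 kb at 72 h. The differences in length were -0.18 and -0.37 on the log2 scale with 500 bp added, and -0.19 between 36 h and 72 h, all within 1.5-fold. With the 3 lists cut to the same number of peaks, the difference at 72 h was -0.64, past 1.5-fold. In a list whose total length grew, the median 35 kb window was higher by 0.42 at 36 h and 0.51 at 72 h, and 8.38% and 4.63% of 15622 windows were at least 1.5-fold lower, while 40.3% and 45.7% were at least 1.5-fold higher. For 72 h against 36 h 5.65% were at least 1.5-fold lower. Among 1260 windows with at least 5 kb under proliferation peaks these shares were 13.4%, 7.62% and 2.22%. Windows as low as Id1 or lower made up 17.1% at 36 h and 7.89% at 72 h, and 26.8% and 12.8% of those with at least 5 kb. Peak number was 1.43 and 1.29 times that of proliferation, also within 1.5-fold, where 42.4% and 43.6% of windows were at least 1.5-fold higher, and for 72 h against 36 h it went from 10 to 9, where 20% were at least 1.5-fold lower. Its direction at 72 h depended on the peak threshold, since among peaks whose −log10 q reached 5 the log2 ratio was -0.58 in place of 0.36. For 72 h against 36 h it was -0.81 among those peaks and -1.22 with lists equal in number, both past 1.5-fold. The neighbouring windows of 35 kb held more under peaks later, 4.17, 6.03 and 5.95 kb on the left and 1.15, 3.15 and 7.42 kb on the right.

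**Figure D3:**
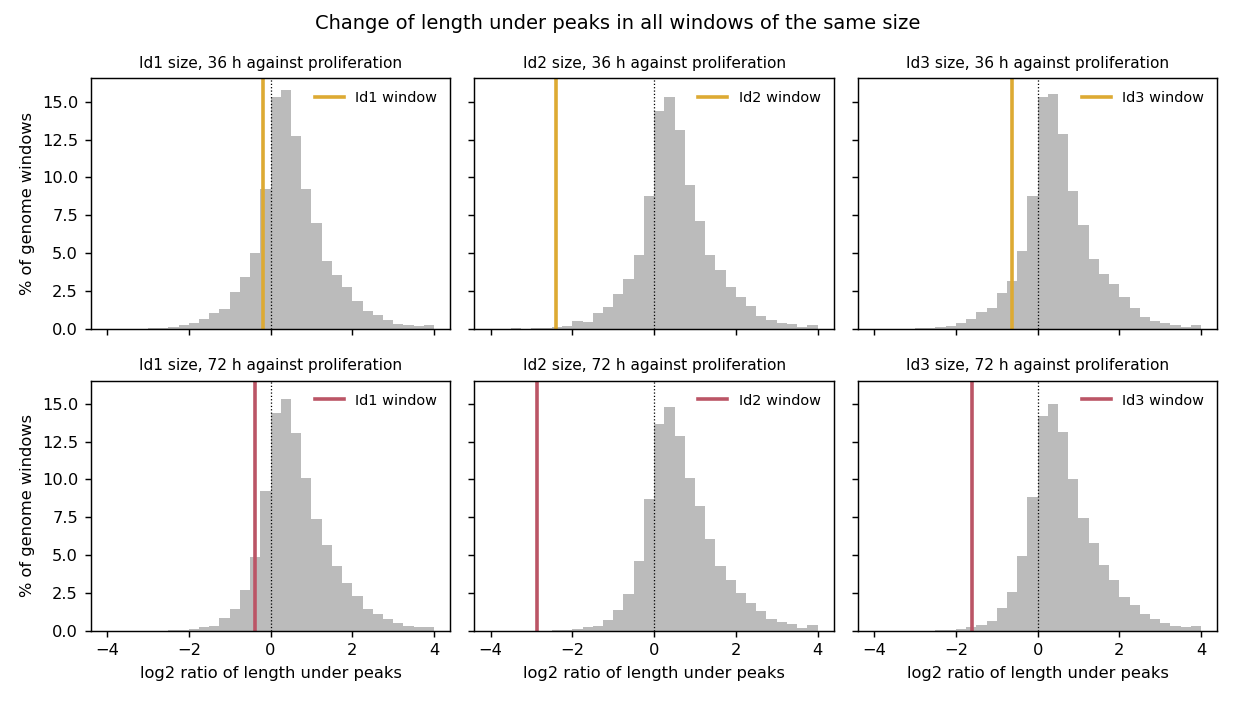
Distribution of the log2 ratio of length under peaks (500 bp added to each side) over all genome windows of the same size as each Id window with a peak in each list, for 36 h (top) and 72 h (bottom) against proliferation; the vertical axis is the percentage of windows, and windows beyond the ends of the axis are counted in the last bar. The coloured line is the Id window, at -0.18 and -0.37 for Id1, -2.39 and -2.86 for Id2 and -0.63 and -1.61 for Id3, and lies left of the median window in each panel, with Id1 at 36 h inside the bulk of windows and Id2 at the far end.

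The small change of Id1 length covered unlike changes along the locus. All Id1 peaks lay in 4 regions that were held by each of the 3 lists. The strongest in proliferation, chr2:152560996-152561868, had 82 summit fragments (65.2 to 102) and a fold of 16.8, above 98.0% of that list. It had 36 fragments over 659 bp at 36 h and 21 fragments over 414 bp at 72 h, which is 0.367 times (0.241 to 0.550) and 0.233 times (0.137 to 0.380) proliferation per depth. Its neighbour chr2:152560124-152560936 went from 55 fragments over 813 bp to 17 over 500 bp and 14 over 152 bp, or 0.259 times (0.141 to 0.452) and 0.232 times (0.119 to 0.423).

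Directly beside them, the broad Id1 region chr2:152562028-152568386 kept its length, and its highest summits were within 1.5-fold of proliferation. The length under its peaks was 5.96 kb in proliferating cells and 6.13 and 5.65 kb later, with 59, 54 and 55 fragments at the highest summit. The ratios per depth were 0.766 (0.520 to 1.13) and 0.849 (0.577 to 1.25), with intervals that include 1. The summits compared lay at 152567458 in proliferation and at 152563363 and 152562932 later, where the other proliferation peak had 58 fragments. Near 152567458 itself the fragments were 59, 46 and 48. After subtraction of background and scaling for depth these were 56.4, 36.6 and 42.1, at least 1.5-fold lower at 36 h. The region became the strongest of Id1 in both later lists, with folds of 17.2 and 15.9, above 93.2% and 92.0% of their peaks. In proliferation the peak that was lower later ended at 152561868 and the first peak of the kept region began at 152562053. The fourth Id1 region, chr2:152551816-152556185, had highest summits of 44, 33 and 54 fragments. These lay at 152554357 in proliferation, 152553044 at 36 h and 152552771 at 72 h, so the region's ratios compare different positions. The later peaks nearest the proliferation summit, chr2:152554285-152554637 at 36 h and chr2:152554380-152554537 at 72 h, had 14 and 18 fragments. After subtraction of background and scaling for depth, the region's highest summit stood at 0.636 times proliferation at 36 h, past 1.5-fold, and at 1.1 times at 72 h. Per depth, without that subtraction, the ratios to proliferation were 0.628 (0.387 to 1.01, an interval that includes 1) and 1.12 (0.737 to 1.70), and 1.78 (1.13 to 2.84) for 72 h against 36 h. Peaks covered 4048, 3003 and 2723 bp of it. Within it, the proliferation peak chr2:152555647-152556185, 539 bp with 35 fragments, was the only Id1 peak of that list with no overlapping peak at 72 h, where 36.6 fragments would be expected and 11 sufficed.

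Seen as merged regions, in which overlapping peaks of the 3 lists are joined, the windows held 28 regions. All 3 lists held 12 of them, proliferation and 36 h 3, proliferation alone 12 and 36 h alone 1, beside 25.6%, 1.7%, 6.7% and 15.9% of 112926 regions in the genome. No region was gained, that is, called at both 36 h and 72 h and not in proliferation, and none was called at 72 h alone or at proliferation and 72 h. In the genome 22.3% of regions were gained, 23.9% were called at 72 h alone and 3.95% at proliferation and 72 h. Of the Id regions with a proliferation peak, 12 of 27 were lost, that is, called in proliferation alone, 0 of 4 at Id1, 7 of 11 at Id2 and 5 of 12 at Id3, beside 17.7% of 42854 such regions in the genome. These counts depended on how finely peaks were split and on the length of the lists. With gaps of 1 kb or less bridged, 2 of 9 Id regions with a proliferation peak were lost and 7 were held by all 3 lists, beside 8.09% lost of 25886 such regions in the genome. With lists equal in number, 16 of 29 were lost, beside 29.5% of 43452. When peaks had to share 50% of the shorter one, 1 Id region counted as gained. The Id peaks that remained lay where proliferation peaks had been: 100% of the length of the 36 h peaks at Id2, 95.5% at Id1 and 93.8% at Id3 was under proliferation peaks, compared with 42.3% for the whole 36 h list. At 72 h these shares were 97.9%, 93.9% and 97.2%, compared with 39.8%. In the other direction, 84.0% of the proliferation length at Id1 was under peaks at 36 h and 71.8% at 72 h, 14.8% and 9.03% at Id2, and 54.2% and 34.3% at Id3. For the whole proliferation list the shares were 75.7% and 80.9%.

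**Figure D4:**
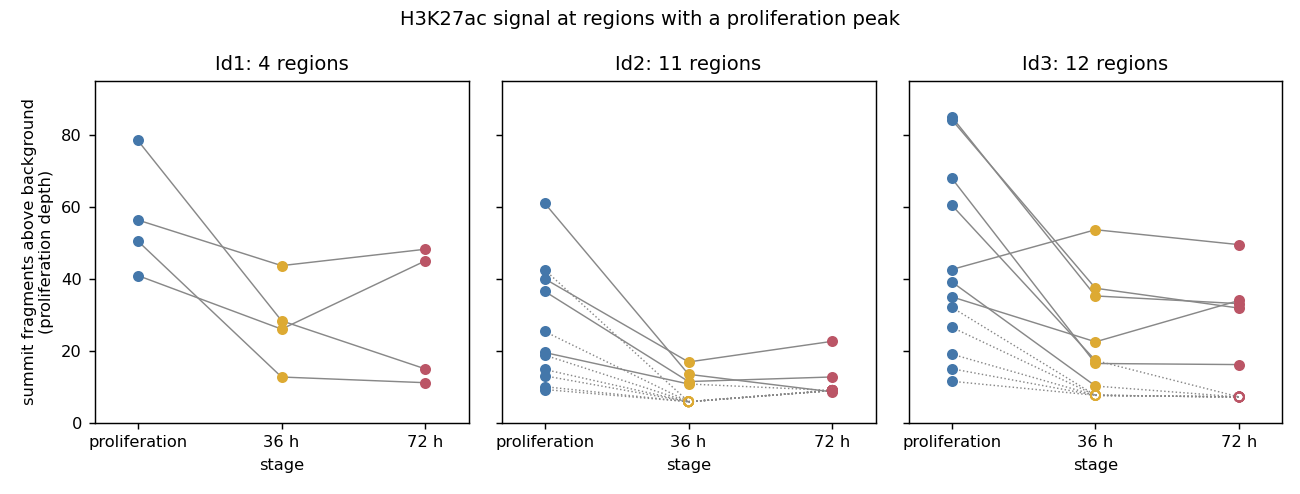
Summit fragments above background, scaled to the depth of proliferation, at each region with a proliferation peak (4 at Id1, 11 at Id2, 12 at Id3) for the 3 stages; lines join the same region. Open circles with dotted lines mark regions without a peak at that stage, placed at the level that would have sufficed for a call (5.86 to 8.99 fragments at Id2 and Id3), which is set from the median background of the window's peaks at that stage and is no measurement.

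Height at the regions held by all 3 lists was also lower. After subtraction of background and scaling for depth, the summit signal was at least 1.5-fold lower at 36 h in 10 of 12 Id regions, beside 19% of 28908 such regions in the genome, and at 72 h in 8 of 12, beside 10.9%. None was at least 1.5-fold higher in either comparison, beside 18.9% and 28.7%. The 12 include the regions at both edges of the Id3 window, whose highest summits lay outside it. That at the left edge was among those lower at 36 h, at 0.642 times proliferation. Among regions with at least 35 fragments above background in proliferation, a level chosen after the data were seen and passed by each of the 12, 22.3% and 13.1% were at least 1.5-fold lower, and 2.6% for 72 h against 36 h. The median Id region stood at 0.418 times proliferation at 36 h and 0.384 times at 72 h, compared with 1.04 and 1.18 times for all regions. The latter medians were not restricted to the level of 35 fragments, which 9659 of the 28908 regions reached. By locus the medians were 0.479 and 0.434 at Id1, 0.314 and 0.349 at Id2, and 0.444 and 0.389 at Id3. Those of Id2 are the ratios of chr12:25781132-25782415, where the summits compared lay at different positions. Between 36 h and 72 h, 2 of the 12 regions were at least 1.5-fold lower and 2 at least 1.5-fold higher, beside 4.85% and 21.3% in the genome, and the median ratio was 0.960. Regions of 1 window are neighbours and share their libraries, so they are not replicates of a stage.

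The differences between libraries bear on these values as follows. By the recovered scale factors and genome backgrounds, the 36 h library was 1.2 times and the 72 h library 1.1 times as deep as the proliferation library. The local background at Id peaks, relative to the genome background of its library, had medians of 2.76 (Id1), 1.64 (Id2) and 2.25 (Id3) in proliferation, 1.03, 1.11 and 1.60 at 36 h, and 1.85, 1.90 and 1.29 at 72 h. It was thus highest in proliferation at Id1 and Id3 and highest at 72 h at Id2. Over all peaks of each list the medians were 1.93 in proliferation, 1.06 at 36 h and 1.14 at 72 h. The smallest −log10 p was 3.24, 2.99 and 2.92 in the same order, so the proliferation list had the strictest cutoff. How far these differences bear on the growth of the whole lists was not tested. Of the 30 proliferation peaks, 12 had no overlapping peak at 36 h (23.7% of the whole list) and 16 had none at 72 h (18.0%). At equal signal the expected fragments reached the number needed for a call in each of these cases, also at the highest background of the window's peaks in the later list. At that background the expected number was raised as well. These peaks had already passed the proliferation list, the least deep and strictest of the 3, with the same fragments that set the expected number. The outcome was thus largely set in advance, and no conclusion is drawn from it. Counting error was not included, so a weak peak whose expected number is close to the number needed could be missed at equal signal. Whether the pooled assays of a stage differed among themselves was not tested.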

How the data were processed

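H3K27ac ChIP-seq peak lists of 3 C2C12 libraries were used; no file of the 3 inputs was analysed. The submitters' processing notes name BWA, MACS2 and deepTools with build mm9; their versions and settings were not given in the sources used here. Per the narrowPeak column order, the deposited files give per peak a fold (ratio of ChIP to background at the summit), a −log10 p and −log10 q, a summit offset ("other" column) and a score, the last not analysed. These are the authors' values and describe peaks within 1 list only.

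Whole summit fragments and the local background were recovered from each deposited fold and −log10 p, with 1 scale factor per library; with it the −log10 p of 100% of peaks came back within a relative tolerance of 0.0003, after a check on simulated data. Read totals are not given; relative depth came from the scale factors (0.673, 0.698, 0.657) and genome backgrounds (1.01, 1.25, 1.08 fragments), assuming 1 genome size setting and the input as control. Intervals are exact Poisson, or exact binomial for ratios, and cover counting error only; a region's ratio compares the strongest peak of each list in it, whose summits may differ in position. Expected fragments use the signal of the peak and the median background of the other list's peaks in the same window, or the highest where stated. Needed fragments pass that list's smallest −log10 p.

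Peaks overlapping a window by at least 1 bp were counted whole. Calls are at least 1.5-fold; 500 bp were added to lengths in log2 ratios. Windows of the same size laid end to end gave the background, and those holding the Id peaks were counted among them. The rule for naming positions was the strongest peak of each window and list, the longest region of each window and every region of at least 500 bp missing from a list; positions outside it were chosen after their values were seen. Members, lists and windows were chosen with earlier results of these data known. No gene positions on mm9 were used, so other genes of the pathway and cell type markers were not analysed. Alternatives were stricter peaks, equal list lengths, scaled depth, the central 17.5, 25 and 20 kb of the windows (Id1, Id2, Id3), clipped peaks, 100 bp added, other merging rules and other signal scalings. Python 3.11.15, numpy 2.4.6, pandas 2.3.3 and scipy 1.17.1 were used.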

Additional observations from a re-analysis of the deposited data

How the results depend on the processing

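Lengths under peaks at Id2 and Id3 kept their direction and their side of 1.5-fold against proliferation under each alternative run, with log2 ratios from -2.90 to -2.39 (36 h) and -3.30 to -2.86 (72 h) at Id2 and from -0.80 to -0.63 and -1.77 to -1.56 at Id3. Of 90 recomputed ratios of number and length, 73 stayed on the same side of 1.5-fold, and some of these had a log2 ratio of 0 before or after. Peak number at Id1 was the least stable: at 72 h against proliferation it turned to -0.58 with a −log10 q of at least 5 and to -1.22 with lists equal in number. In the central part of the window it was higher by exactly 1.5-fold (0.58 at 36 h and at 72 h). Against 36 h it was -0.81 with the stricter q and -1.22 with equal lists. Id1 length at 72 h against proliferation passed 1.5-fold with equal lists (-0.64). For 72 h against 36 h at Id2, peak number was -1 with the stricter q, with equal lists and at scaled depth, and -0.58 in the central part; length was -0.63 at scaled depth and -0.62 with 100 bp added. The peak number of Id3 at 72 h fell short of 1.5-fold with the stricter q and in the central part, at -0.51 against proliferation and -0.36 against 36 h. With gaps of 1 kb or less bridged, there were 7 regions of all 3 stages and 2 lost regions, and requiring overlap of 50% of the shorter peak gave 1 gained region. The median summit signal at shared Id2 regions for 72 h against 36 h changed sign without background subtraction (-0.047) and relative to all shared regions (-0.050), from 0.15. The cause of these changes was not tested. No paired analysis was possible because each stage has 1 library and the labels give no replicate numbers. Weak peaks of 11 to 17 fragments are near the limit of detection.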
